A study of Mus musculus with 26 samples.

Results

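The comparison described here set control one-cell mouse embryos against unfertilised eggs, over all genes. Libraries were chosen by their sample labels alone: 7 control embryo libraries that belong with a c-Myc inhibitor experiment (called the first series) and all 4 libraries of MII oocytes, which together are 11 of the 26 libraries of the study. The study followed gene expression in the one-cell embryo and also treated embryos with inhibitors, and those treated libraries were not used here. The embryos came from in vitro fertilisation of B6D2F1 eggs with B6D2F1 sperm, so they are F2 embryos of that hybrid strain, with an age label of 10 h and the treatment label Control. The MII oocytes, eggs held at the second meiotic metaphase, carry the strain label B6D2F1, the age label 0 h and the treatment label Control. The females were superovulated at 8 weeks of age, and the labels do not say whether the control embryos received a solvent. Each side comes from a different series of libraries by its titles: the oocytes were numbered with a second series that holds its own 4 control embryos of the same labelled strain, age and treatment. Series and stage therefore cannot be told apart within the comparison, and signs were checked against the second-series control embryos. That check shares the 4 oocyte libraries with the comparison itself, so the values are set side by side and are not independent. The protocols place the start of incubation 2 h after mixing of sperm and eggs in one arm and 1 h in the other, each for 10 h, and whether the control embryos of the 2 series were collected at 1 age was not tested. Labels describe direct lysis of single-cell embryos but do not name the animal behind a library, so each p-value measures the spread between libraries, which may be partly technical.

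Library totals were 20566278 to 25272299 counts in the first-series embryos, 18588226 to 26022296 in the oocytes and 15155120 to 21904203 in the second-series embryos. A count of 0 in a library allowed up to 0.119 to 0.146 CPM in first-series embryos and 0.115 to 0.161 CPM in oocytes, for counting error only. These limits are 3 counts relative to the raw library total, whereas levels in CPM give each count relative to its TMM-scaled library total. The median Spearman correlation of a library with others of its group was 0.939 to 0.948 in the first-series embryos, 0.921 to 0.936 in the oocytes and 0.840 to 0.870 in the second-series embryos, where embryo 1 stood lowest. The labelled cell type was checked against its markers. The summed level of 10 oocyte markers was 9270 to 10100 CPM in oocytes, 4450 to 6390 CPM in the first-series embryos and 4840 to 5710 CPM in the second-series embryos. Cumulus and granulosa markers, of the cells that surround the egg, summed over 14 genes to 14.8 to 35.7 CPM in oocytes, 8.80 to 23.8 CPM in first-series and 8.88 to 73.6 CPM in second-series embryos, and the part of this highest value in the second-series results was not tested. Of 7 sperm markers, Prm1, Tnp1, Tnp2 and Smcp were at 0 in all 11 libraries, and the sum was 4.16 to 15.4 CPM in oocytes, 4.74 to 10.4 CPM in first-series and 8.57 to 20.5 CPM in second-series embryos. Most of this sum was Prm2, with a mean of 10.8 CPM in the oocytes and 5.89 CPM in first-series embryos. Of 7 blood markers, 5 were at 0 in all 11 libraries, and the sum was 0 to 6.34 CPM in oocytes, 0 to 0.951 CPM in first-series embryos and 0 in second-series embryos. CPM is a share of a library, so a fall of a transcript and a rise of the rest of the library's RNA cannot be told apart.

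The egg enters fertilisation with a store of messenger RNA made while it grew, and transcribes almost nothing while it matures. After fertilisation the stored messages are adenylated, translated or destroyed in turn, through deadenylation by the CCR4-NOT complex with its egg adaptor Btg4, while the one-cell embryo begins a low and promiscuous transcription of its own genome. The cytoplasmic polyadenylation element, written TTTTAT here, is a 3′ UTR hexamer bound by Cpeb1 that sets when a stored message is adenylated and translated. It is best known close to the AATAAA signal that directs cleavage and polyadenylation.

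The hexamer is shown first because it can be read directly at the 3′ end of several of the genes described below. Each line gives 30 bases of 3′ UTR, 5′ to 3′, from the GENCODE vM21 transcript sequence on build GRCm38, and capitals mark TTTTAT and AATAAA. The first 4 genes fell between egg and embryo, and the last, Btg4, was not called.
Gdf9, chr11:53437863-53437892 plus strand: tggTTTTATgtgacggaagAATAAActgtt
Bub1b, chr2:118641562-118641591 plus strand: gtaTTTTATAATAAAatagtttttgttaca
H1foo, chr6:115950166-115950195 plus strand: agcTTTTATtgtctaataagctgtcacaat
Dcp1a, chr14:30526994-30527023 plus strand: aaaTTTTATatgtttgcaaatatatttttt
Btg4, chr9:51119806-51119835 plus strand: cctTTTTATgtctttttaaaagtttgattt
The hexamer starts 39 bases from the annotated end in Gdf9, 27 in Bub1b, 63 in H1foo, and 67 in both Dcp1a and Btg4. Searched on the transcript strand in the last 100 bases of the 3′ UTR, TTTTAT was present in 230 of 1239 genes that fell in first-series embryos (18.6%) and in 207 of 1302 that rose (15.9%). Of genes called in both series it was present in 78 of 356 that fell (21.9%) and 34 of 226 that rose (15%). Among genes that differed between the series the share was 19.6% for those higher in the first and 19.7% for those lower. The hexamer was present in 1696 of all 11115 genes with a 3′ UTR long enough to search (15.3%). A match is a description of these letters, which also occur in the not called Btg4, and the annotated transcript end may not be the end used in the egg.

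Of 14099 genes that passed the filter on low counts, 1484 were lower (10.5%) and 1495 higher (10.6%), 2979 in all (21.1%), in the first-series embryos than in the oocytes, by edgeR's quasi-likelihood test with Benjamini-Hochberg adjustment at 0.05. Among the called genes, the falls were deeper than the rises. At least a 2-fold change was met by 801 lower genes (5.68%) and 429 higher genes (3.04%), and the median log2 fold change was -1.05 among lower and 0.68 among higher genes. The higher genes were more often abundant. At least 100 CPM in both groups was met by 2031 genes, among them 671 of the 1495 higher and 307 of the 1484 lower genes. The part of level in the difference in depth was not tested. The ranges of the 2 groups did not overlap for 1129 genes that lay below the oocytes (8.01%) and for 1073 that lay above (7.61%). Genes called lower held 21.4% to 22.1% of an oocyte library's counts and 10.8% to 12.1% of an embryo library's, and these values follow from the calls themselves.

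The second-series embryos gave the same sign for most calls. Of 1481 lower genes that were also tested there, 1373 (92.7%) had the same sign, and of 1354 higher genes 1200 (88.6%) did. Over all 11875 genes tested in both, called or not, 73.3% had the same sign. Fewer genes passed the test in the second series, 471 lower (3.94%) and 293 higher (2.45%) of 11949, 764 in all (6.39%). Those counts fell to 262, 279, 279 and 282 lower genes and to 121, 149, 152 and 157 higher genes when oocyte 1, 2, 3 or 4 was left out. Both contrasts called 400 genes lower and 236 higher. All 4 second-series embryos lay below all 4 oocytes for 746 of the 1484 lower genes (50.3%, against 8.89% of all genes tested) and above them for 397 of the 1495 higher genes (26.6%, against 4.65%). Between the embryos of the 2 series, 371 of 13594 genes (2.73%) were higher and 209 (1.54%) lower in the first, with 231 and 139 when first-series embryo 1 was left out and 243 higher without embryo 2. Together, 580 genes (4.27%) differed between the series. That difference touched 195 of the 1495 higher genes (13%) and 96 of the 1484 lower genes (6.47%). Pairs of log2 fold changes give the first series and then the second, and levels with ± are the mean and SD of 4 oocytes and 7 first-series embryos.

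The egg's own secreted factors and coat proteins were among the genes that fell. Of 16 tested oocyte secreted factors and germline transcription factors, 7 fell (43.8%, against 10.5% of all genes) and 2 rose (12.5%, against 10.6%). Their median log2 fold change was -0.25, where the median of all genes was 0.02. Gdf9 (ENSMUSG00000018238, chr11:53431023-53437904, plus strand) encodes a growth factor by which the oocyte directs the surrounding cumulus cells. Gdf9 read 2140, 1910, 2220 and 1960 CPM in the 4 oocyte libraries and 317 to 614 CPM (median 379) in the 7 first-series embryos. Every embryo lay far below every oocyte, and so did the second-series embryos at 349, 275, 431 and 224 CPM. The fitted log2 change was -2.29 ± 0.14 (SE; adjusted p = 1.02e-10, edgeR) in the first series, against -2.69 ± 0.18 (adjusted p = 1.04e-06) in the second. Bmp15, the partner ligand of Gdf9 on the X chromosome, behaved differently: it read 1980, 1510, 2170 and 1780 CPM in oocytes and 1170 to 1791 CPM (median 1302) in the first-series embryos, and the ranges overlapped. Bmp15 fell by 0.41 on the log2 scale in the first series (edgeR adjusted p = 0.00764), while in the second it was -0.03 ± 0.12 (adjusted p = 0.959), with embryos at 1800, 1870, 1940 and 1680 CPM. The embryos of the 2 series themselves differed for Bmp15, by -0.40 ± 0.11 (adjusted p = 0.0435), as they did for Oosp1, an oocyte-secreted protein with a log2 fold change of -0.88 in the first series, against -0.41 in the second. Fgf8, a fibroblast growth factor that acts on cumulus cells with Bmp15, went from 122 ± 29.9 to 52.7 ± 17.2 CPM (mean ± SD, n = 4 oocytes and 7 embryos) and had log2 fold changes of -1.21 and -1.30.

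Of 9 tested genes of the egg coat and egg surface, 6 fell (66.7%), with a median log2 fold change of -1.47 (-1.64 in the second series). Together the listed genes summed to 2132 to 2565 CPM in oocytes, 627.1 to 687.3 CPM in first-series embryos and 598.9 to 655 CPM in second-series embryos. Zp1 (ENSMUSG00000024734, chr19:10914287-10920632, minus strand), a crosslinker of the zona pellucida filaments, read 226, 210, 228 and 262 CPM in oocytes and 25.5 to 43.9 CPM (median 34.9) in first-series embryos. Every embryo lay below every oocyte, also in the second series, whose embryos read 63.1, 12.8, 34.9 and 11.0 CPM. The log2 fold change of Zp1 was -2.76 ± 0.14 (SE; adjusted p = 6.90e-12, edgeR), and -2.93 ± 0.45 (adjusted p = 0.00134) in the second series. Zp2, the zona protein cleaved at fertilisation, and Zp3, a zona filament protein, moved from 324 ± 16.6 to 117 ± 16.2 CPM and from 151 ± 16.0 to 40.4 ± 5.24 CPM, with log2 fold changes of -1.47 and -1.90 (-1.64 and -2.08 in the second series). Astl encodes ovastacin, the cortical granule protease that cleaves Zp2. It read 182, 182, 186 and 156 CPM in oocytes and 27.2 to 46.4 CPM (median 36.9) in first-series embryos, a log2 fold change of -2.30 ± 0.15 (SE; adjusted p = 2.85e-10, edgeR) (-2.27 in the second series, called). Plat (ENSMUSG00000031538, chr8:22757727-22782844, plus strand), the tissue plasminogen activator whose message is a classic store of the mouse egg, read 970, 1270, 1040 and 1440 CPM in oocytes, 184 to 238 CPM (median 205) in first-series embryos and 248, 193, 206 and 117 CPM in second-series embryos. Its log2 fold change was -2.51 ± 0.10 (SE; adjusted p = 2.26e-13, edgeR) and -2.63 ± 0.21 (adjusted p = 4.50e-06), and neither embryo group overlapped the oocytes.

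**Figure D1:**
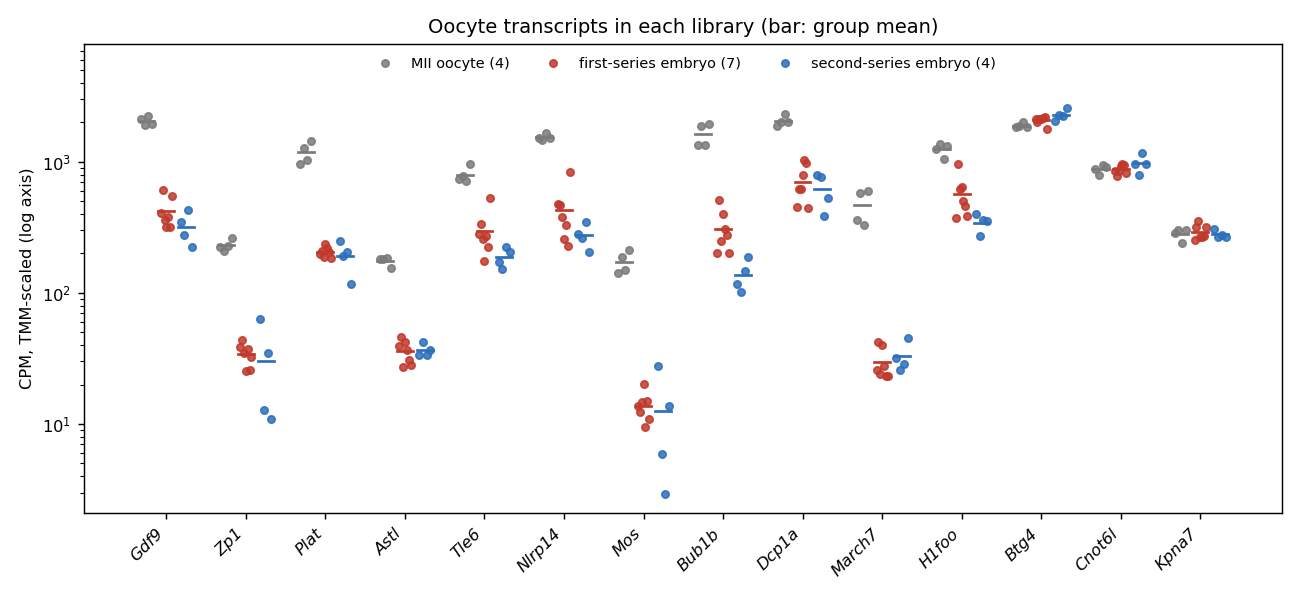
Level of 14 genes in each library, in CPM on a log axis, for the 4 oocytes, the 7 first-series and the 4 second-series control embryos; points are libraries and bars are group means. Gdf9, Zp1, Plat, Astl, Mos and March7 lie below every oocyte in both embryo groups, while the ranges of Btg4, Cnot6l and Kpna7 overlap the oocytes in the first series.

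The subcortical maternal complex and other maternal-effect genes, stored in the egg for the first cleavages, split. Of 36 tested, 11 fell (30.6%, against 10.5% of all genes) and 8 rose (22.2%, against 10.6%), and the median log2 fold change was -0.02. Tle6, a core member of the complex, read 737, 782, 710 and 965 CPM in oocytes and 174 to 527 CPM (median 273) in first-series embryos, a log2 fold change of -1.43 ± 0.19 (SE; adjusted p = 5.20e-06, edgeR). Padi6, needed for the egg's cytoplasmic lattices, went from 1700 ± 112 to 808 ± 173 CPM, a log2 fold change of -1.07. Second-series embryos gave -2.08 for Tle6 and -1.39 for Padi6, both called. Nlrp5, a further core member also known as Mater, was called in neither contrast: it read 886, 950, 956 and 832 CPM in oocytes and 805 to 1570 CPM (median 1141) in first-series embryos, and its log2 fold change was 0.31 ± 0.14 (SE; adjusted p = 0.135, edgeR) in the first series, against -0.18 ± 0.12 (adjusted p = 0.567) in the second. With no filter on low counts the first-series change passed (adjusted p = 0.013, edgeR). Other Nlrp genes of the egg fell. Nlrp14 (ENSMUSG00000016626, chr7:107166990-107198102, plus strand), whose loss in females arrests the early embryo, read 1530, 1470, 1650 and 1530 CPM in oocytes, 227 to 844 CPM (median 379.9) in first-series embryos and 282, 263, 350 and 205 CPM in second-series embryos. The log2 fold change of Nlrp14 was -1.86 ± 0.22 (SE; adjusted p = 1.55e-06, edgeR) and -2.49 ± 0.15 (adjusted p = 6.91e-07). Nlrp2 and Nlrp4b had log2 fold changes of -1.42 and -1.15 (-2.13 and -0.83 in the second series, all called). Of the 36 tested maternal-effect genes, 9 have near-identical copies in the genome, which could share their reads. They include 3 of the 11 that fell and 1 of the 8 that rose. Nlrp2, Nlrp5 and Zar1 are among the genes with a copy. Zar1, an RNA-binding factor of the egg-to-embryo transition, went from 691 ± 81.2 to 274 ± 50.8 CPM, a log2 fold change of -1.34 (-1.70). Zbed3, another member of the complex, rose: it read 9440, 9530, 9430 and 10600 CPM in oocytes and 11520 to 14810 CPM (median 14260) in first-series embryos, which do not overlap, with a log2 fold change of 0.49 ± 0.07 (SE; adjusted p = 1.95e-05, edgeR) and 0.65 ± 0.09 (adjusted p = 0.000616). The first-series call was lost in 1 fit of all 26 libraries (adjusted p = 0.0518, edgeR). Kpna7, the importin alpha of the egg, read 288, 304, 241 and 300 CPM and 254 to 352 CPM (median 274). The log2 change came to 0.05 ± 0.11 (SE; adjusted p = 0.841, edgeR), and the ranges overlapped.

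Transcripts for the hold at metaphase and for chromosome segregation changed gene by gene. Of 38 tested genes of meiotic arrest and exit, 6 fell (15.8%, against 10.5% of all genes) and 9 rose (23.7%, against 10.6%). Mos (ENSMUSG00000078365, chr4:3870657-3872105, minus strand) is the kinase that starts the cytostatic cascade holding the egg at metaphase II. It read 143, 187, 149 and 211 CPM in oocytes and 9.41 to 20.3 CPM (median 13.6) in first-series embryos, with no overlap. Second-series embryos read 27.9, 5.92, 2.92 and 13.7 CPM for Mos, and the log2 fold changes were -3.65 ± 0.18 (SE; adjusted p = 5.35e-12, edgeR) and -3.78 ± 0.54 (adjusted p = 0.000742). Mapk3, a MAP kinase of the same cascade, went from 176 ± 29.4 to 87.3 ± 16.9 CPM, with log2 fold changes of -1.01 and -1.01. Subunits of the M phase kinase differed between the series. Ccnb1, the cyclin B that carries Cdk1 into M phase, rose from 409.8 ± 58.2 to 761 ± 86.2 CPM in the first series. That was a log2 fold change of 0.89 ± 0.10 (SE; adjusted p = 1.40e-06, edgeR), against 0.11 in the second, and the embryos of the 2 series differed by 0.76 ± 0.12 (adjusted p = 0.001). Cks2, a Cdk1 subunit, showed the same contrast, 1.34 against 0.23, and both genes have near-identical copies in the genome (4 and 3), which could share their reads.

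Of 39 tested spindle checkpoint and mitosis genes, 8 fell (20.5%, against 10.5% of all genes) and 6 rose (15.4%, against 10.6%). Bub1b encodes the checkpoint kinase BubR1, which delays anaphase until chromosomes attach. It read 1340, 1890, 1350 and 1940 CPM in oocytes, 199.5 to 510.4 CPM (median 276) in first-series embryos and 116, 102, 146 and 187 CPM in second-series embryos. All embryos lay below all oocytes, and the log2 fold change was -2.41 ± 0.19 (SE; adjusted p = 4.87e-09, edgeR) in the first and -3.56 ± 0.20 (adjusted p = 6.91e-07) in the second series. The fall of Bub1b was larger in the second series, by a series difference of 1.13 ± 0.24 (adjusted p = 0.0134). Smc3, a cohesin subunit that holds sister chromatids, went from 421 ± 23.1 to 133 ± 60.6 CPM, and Smc4, a condensin subunit that compacts chromosomes, from 1191 ± 70.3 to 573 ± 176 CPM. Their log2 fold changes were -1.66 and -1.06 in the first series, against -2.19 and -1.03 in the second, all called. Smc3 is among the genes with a near-identical copy. Nek2, a centrosome kinase, rose in the first series at 0.82 ± 0.12 (SE; adjusted p = 1.72e-05, edgeR) and had 0.33 ± 0.20 (adjusted p = 0.491) in the second.

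Among 41 tested genes of deadenylation and maternal mRNA decay, 9 fell (22%, against 10.5% of all genes) and 3 rose (7.32%, against 10.6%). The machinery did not move as a block. Dcp1a, the decapping activator, read 1890, 2000, 2300 and 2030 CPM in oocytes and 447 to 1034 CPM (median 621) in first-series embryos. Second-series embryos read 796, 760, 389 and 532 CPM, so that both embryo groups lay below the oocytes. The log2 fold change of Dcp1a was -1.54 ± 0.17 (SE; adjusted p = 6.91e-07, edgeR) and -1.73 ± 0.19 (adjusted p = 7.98e-05). Cnot1, the scaffold of CCR4-NOT, went from 478 ± 37.4 to 256 ± 34.2 CPM (log2 fold change -0.90, and -1.02 in the second series). Cnot3, another subunit of the complex, rose from 683 ± 53.0 to 1124 ± 45.7 CPM (0.72 and 0.61). The deadenylase Cnot6l and the adaptor Btg4 were not called in either series. Cnot6l read 875, 801, 952 and 907 CPM in oocytes and 776 to 965 CPM (median 855) in first-series embryos, a log2 fold change of -0.01 ± 0.08 (SE; adjusted p = 0.964, edgeR). Btg4 read 1840, 1870, 2010 and 1850 CPM and 1792 to 2188 CPM (median 2128), a log2 fold change of 0.14 ± 0.07 (SE; adjusted p = 0.217, edgeR), which passed without embryo 8 (0.18, adjusted p = 0.0487). Dis3l, a cytoplasmic exosome nuclease, and Lsm14b, a P-body protein of the egg, had log2 fold changes of -0.96 and -1.03 (-1.09 and -1.21 in the second series), all called.

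Of 37 tested genes of mRNA storage and polyadenylation, 7 fell and 7 rose (18.9% each, against 10.5% and 10.6% of all genes). Cpeb1, the protein that binds the TTTTAT hexamer shown above, read 193, 216, 282 and 260 CPM in oocytes and 76.8 to 103 CPM (median 93.6) in first-series embryos, with second-series embryos at 146, 111, 162 and 80.8 CPM. Its log2 fold change was -1.37 ± 0.12 (SE; adjusted p = 1.66e-08, edgeR) and -0.93 ± 0.22 (adjusted p = 0.0206), with every embryo below every oocyte. Papola, the nuclear poly(A) polymerase, went from 223 ± 17.4 to 102 ± 28.9 CPM, a log2 fold change of -1.13 (-1.16). Ybx1 (ENSMUSG00000028639, chr4:119277981-119294604, minus strand), a Y-box protein that packages messenger RNA, took the other direction. It read 285, 415, 391 and 564 CPM in oocytes, 796 to 1031 CPM (median 922) in first-series embryos and 1010, 837, 848 and 959 CPM in second-series embryos. Both embryo groups lay above the oocytes, with log2 fold changes of 1.15 ± 0.13 (SE; adjusted p = 1.10e-06, edgeR) and 1.14 ± 0.17 (adjusted p = 0.0011). Pabpc4, a cytoplasmic poly(A)-binding protein, rose in the first series at 1.44 ± 0.12 (SE; adjusted p = 1.76e-08, edgeR) and was not called in the second at -0.16 ± 0.26 (adjusted p = 0.872), with a series difference of 1.58 ± 0.16 (adjusted p = 1.17e-05) and 11 near-identical copies.

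Ubiquitin ligases and the proteasome fell more often than all genes did. Of 34 tested ubiquitin ligases of the oocyte, 15 fell (44.1%, against 10.5% of all genes) and 3 rose, 10 of the 15 were also called in the second series, and the list median was -0.29. March7 (ENSMUSG00000026977, chr2:60209887-60250676, plus strand), a RING ligase of the MARCH family, read 362, 579, 329 and 596 CPM in oocytes, 23.3 to 42.2 CPM (median 25.9) in first-series embryos and 31.7, 25.8, 28.5 and 45.3 CPM in second-series embryos. The log2 fold change of March7 was -3.98 ± 0.19 (SE; adjusted p = 2.04e-12, edgeR), a 15.8-fold lower mean, and -3.83 ± 0.25 (adjusted p = 1.04e-06) in the second series. Fbxw15, Fbxw16 and Fbxw24 belong to a cluster of oocyte F-box genes on chromosome 9 that supply substrate receptors for SCF ligases. They had log2 fold changes of -1.23, -1.43 and -0.73 in the first series, against -1.35, -1.72 and -0.71 in the second, all called. Among 36 proteasome subunits, 14 fell (38.9%) and 5 rose, with a median of -0.30. Of 35 tested in the second series, 3 were called lower and 1 higher, with a median of -0.115. Both series called 3 of the 14 falls and 1 of the 5 rises. The median transcript of this list was 1540.5 bases. Among 1294 coding genes of over 1200 and up to 1800 bases without a near-identical copy, 175 fell (13.5%) and 72 rose (5.56%). The part of length was not tested. Psmc2, an ATPase of the regulatory particle, went from 106 ± 10.2 to 57.4 ± 8.52 CPM (-0.89 and -1.61). Psma4, an alpha-ring subunit, rose from 99.7 ± 16.8 to 140.2 ± 8.13 CPM (0.49 and 0.76), and both of these passed in both series.

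Of 47 tested genes of heat shock, unfolded protein response and stress, 10 fell (21.3%) and 11 rose (23.4%), and of 42 tested in the second series 7 fell and 1 rose. Ern1, the endoplasmic reticulum kinase and nuclease that senses unfolded protein, read 2480, 2630, 2650 and 2740 CPM in oocytes and 619.5 to 1046 CPM (median 871) in first-series embryos. On the log2 scale the change was -1.67 ± 0.11 (SE; adjusted p = 5.33e-10, edgeR) and -1.64 ± 0.15 (adjusted p = 1.51e-05). Slc7a11, the cystine importer that feeds glutathione synthesis, went from 473 ± 15.4 to 156 ± 22.4 CPM (-1.60 and -1.59, both called). Dnajb6, a co-chaperone, rose from 122 ± 30.7 to 437 ± 32.3 CPM (1.85 and 0.78, both called), and its rise was larger in the first series by 1.04 ± 0.12 (adjusted p = 4.20e-05). Prpf8, the large scaffold protein of the spliceosome's catalytic core, fell from 566 ± 24.8 to 145 ± 21.9 CPM. Its log2 change was -1.96 ± 0.11 (SE; adjusted p = 1.21e-11, edgeR), against -2.41 in the second series. Grhpr, a glyoxylate reductase, read 12.0, 6.55, 18.4 and 14.3 CPM in oocytes and 0 to 1.77 CPM (median 0.362) in first-series embryos, and its log2 fold change was -4.47 ± 0.91 (SE; adjusted p = 0.000945, edgeR) and -4.25 ± 1.73 (adjusted p = 0.202).

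The nuclear-encoded subunits of oxidative phosphorylation, the mitochondrial machinery that makes ATP, fell more often than all genes taken as a whole. Of 74 tested, 35 fell (47.3%, against 10.5% of all genes) and 5 rose. The list median was -1.27 in the first series, against -1.13 in the second, and 34 of the 35 kept the sign there, although only 6 were called in both. Uqcrq (ENSMUSG00000044894, chr11:53427922-53430831, minus strand), a subunit of complex III, read 91.8, 74.9, 75.9 and 93.1 CPM in oocytes, 6.96 to 14.8 CPM (median 10.2) in first-series embryos and 0, 0.364, 12.8 and 10.7 CPM in second-series embryos. Its log2 fold change was -3.02 ± 0.21 (SE; adjusted p = 5.48e-10, edgeR) and -3.80 ± 1.02 (adjusted p = 0.0416). Sdhd, a membrane anchor of complex II, went from 86.4 ± 11.3 to 31.5 ± 6.10 CPM (-1.46 and -2.22, both called). Cox4i1, a subunit of complex IV, was called in the first series at a log2 fold change of -1.56 and not in the second at -1.04, and the series difference was not called. Of 34 genes of glycolysis, pyruvate use and the pentose phosphate pathway, 5 fell and 5 rose (14.7% each).

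The respiratory list is short, with a median transcript of 863 bases. Among 230 coding genes with a transcript of at most 800 bases and no near-identical copy, 45 fell (19.6%) and 4 rose (1.74%), with a median log2 fold change of -0.62 (-0.35 in the second series). Among 546 such genes of over 800 and up to 1200 bases, the class that holds that median, 66 fell (12.1%) and 15 rose (2.75%). Among 2314 such genes with a transcript over 5000 bases, 280 fell (12.1%) and 317 rose (13.7%), with a median of 0.05. The part of transcript length in the fall of the respiratory list was not tested. Of 77 tested cytosolic ribosomal proteins, also short at a median of 855 bases, 16 fell (20.8%) and 7 rose, and 74 of the 77 have near-identical copies, including all that were called. Their median was -0.45 in the first series, against -1.33 in the second. Rplp1, of the ribosomal stalk, went from 40.2 ± 15.0 to 6.07 ± 2.71 CPM, with -2.73 ± 0.35 (SE; adjusted p = 5.05e-06, edgeR) on the log2 scale (-3.56 in the second series, not called), and Rplp0, the stalk base, had -1.29 (-1.57 in the second series, called). Rpl21 rose by 0.97 ± 0.18 (SE; adjusted p = 0.000385, edgeR) in the first series but was -0.48 in the second, and has 62 near-identical copies.

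**Figure D2:**
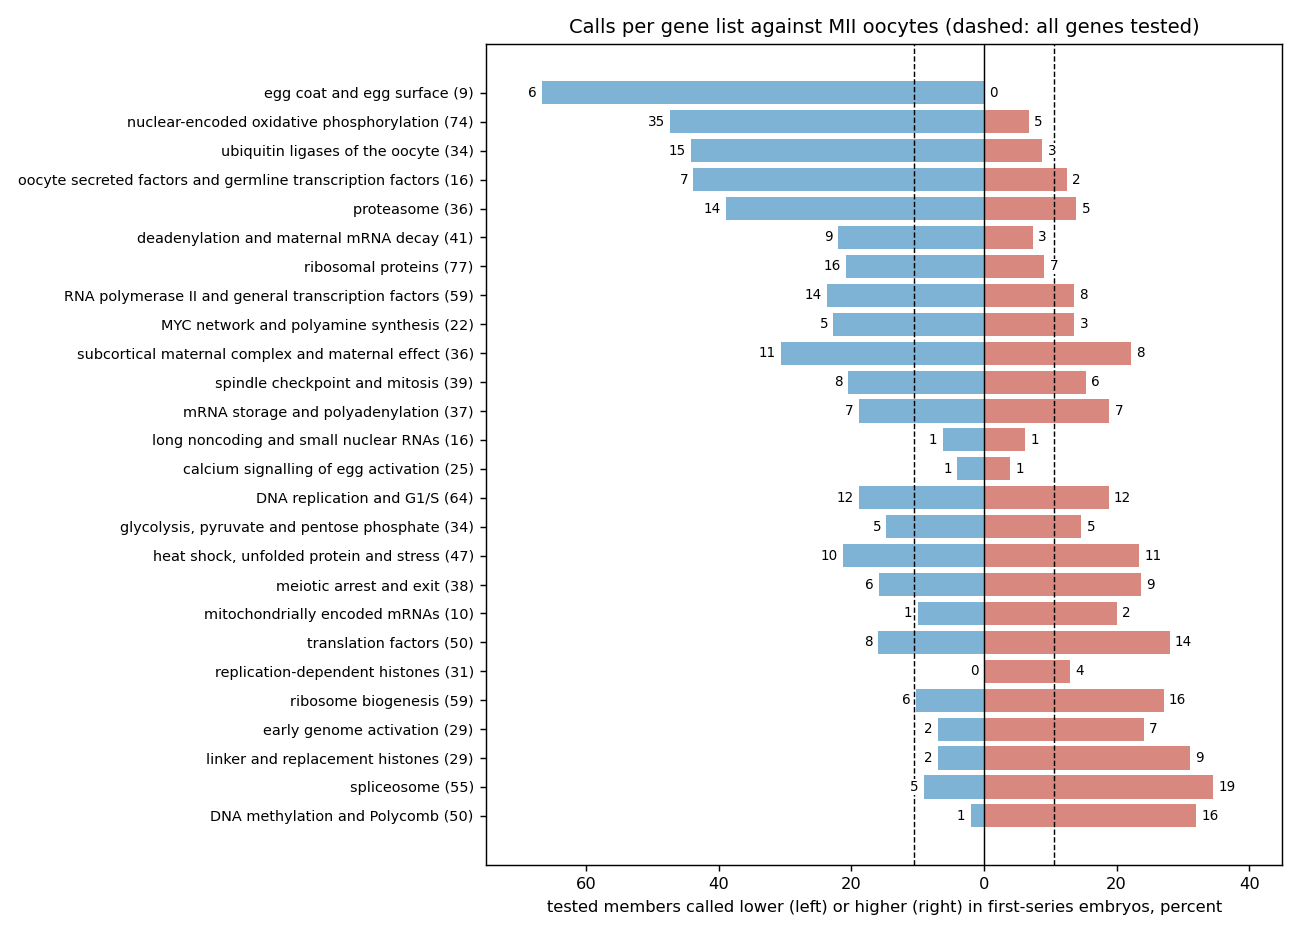
Percent of the tested members of each gene list that were called lower (left) and higher (right) in first-series embryos than in oocytes; dashed lines mark the share over all genes, 10.5% lower and 10.6% higher. The egg coat (66.7%), oxidative phosphorylation (47.3%) and ubiquitin ligase (44.1%) lists reach farthest on the lower side, and the spliceosome (34.5%) and DNA methylation and Polycomb (32%) lists on the higher side. The dashed lines cover genes of all levels, and the lists were not matched for level. Of the 2031 tested genes with at least 100 CPM in both groups, 671 were called higher and 307 lower.

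Chromatin genes were called higher more often than all genes, a set that covers all levels. Of the 2031 tested genes with at least 100 CPM in both groups, 671 were called higher and 307 lower. The gene lists were not matched for level, and the part of level in their shares was not tested. Of 50 tested genes of DNA methylation and Polycomb, a list of genes that write, read or erase marks on DNA and histones, 16 rose (32%, against 10.6% of all genes) and 1 fell. Their median log2 fold change was 0.28 in the first series, against 0.27 in the second. In the second series 5 were called higher and 2 lower, and 3 of the 16 rises were called in both. Zfp57 (ENSMUSG00000036036, chr17:37001163-37010635, plus strand), a zinc finger protein that keeps imprints through the genome-wide loss of methylation, read 1730, 1930, 1650 and 2050 CPM in oocytes, 2914 to 3559 CPM (median 3250) in first-series embryos and 3610, 3580, 3040 and 2890 CPM in second-series embryos. No embryo overlapped an oocyte, and the log2 fold change was 0.82 ± 0.08 (SE; adjusted p = 6.81e-08, edgeR) and 0.83 ± 0.11 (adjusted p = 0.000296). Trim28, the corepressor that Zfp57 recruits, was the 1 gene of the list that fell in the first series, from 239 ± 18.7 to 127 ± 26.9 CPM (-0.91 and -1.53, both called). Kmt2d, an H3K4 methyltransferase, read 1640, 1790, 1530 and 1710 CPM in oocytes and 2118 to 2591 CPM (median 2327) in first-series embryos. The fitted log2 change was 0.48 ± 0.07 (SE; adjusted p = 3.46e-05, edgeR) and 0.77 ± 0.09 (adjusted p = 0.000181), and the embryos of the 2 series differed by -0.30 ± 0.08 (adjusted p = 0.0352). Dnmt3a, a de novo DNA methyltransferase, went from 214 ± 39.1 to 342 ± 17.5 CPM (0.67 and 0.83, both called), and Ezh2, the methyltransferase of Polycomb complex PRC2, from 554 ± 83.8 to 787 ± 57.2 CPM (0.51, and 0.35 in the second series, where it was not called).

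Of 29 tested linker and replacement histones with their chaperones, 9 rose (31%) and 2 fell. H1foo, the oocyte's own linker histone, fell while the linker histones Hist1h1a and H1f0 rose. H1foo read 1250, 1380, 1050 and 1330 CPM in oocytes, 375 to 966 CPM (median 507) in first-series embryos and 397, 270, 358 and 351 CPM in second-series embryos, and its log2 fold change was -1.15 ± 0.18 (SE; adjusted p = 4.42e-05, edgeR) and -1.86 ± 0.14 (adjusted p = 3.61e-06). Hist1h1a, the linker histone H1.1, read 353, 412, 356 and 361 CPM in oocytes, 559.6 to 1001 CPM (median 807) in first-series embryos and 918, 804, 719 and 765 CPM in second-series embryos. The log2 fold change of Hist1h1a was 1.04 ± 0.14 (SE; adjusted p = 5.92e-06, edgeR) and 1.11 ± 0.12 (adjusted p = 7.11e-05), and H1f0, the replacement linker histone, had 0.94 and 0.98. Nasp, a chaperone of histone H3-H4 and of linker histones, rose from 528 ± 27.2 to 1120 ± 60.9 CPM, with a log2 fold change of 1.09 ± 0.08 (SE; adjusted p = 1.16e-09, edgeR) and 0.70 ± 0.13 (adjusted p = 0.00441). The 2 genes for histone H3.3, the variant loaded outside replication, gave different pictures. H3f3b rose in both series, by 0.40 and by 0.96, with a series difference of -0.58 ± 0.09 (adjusted p = 0.00154). H3f3a rose by 2.05 ± 0.12 (SE; adjusted p = 5.72e-11, edgeR) in the first series, but was -0.13 in the second, and has 17 near-identical copies. Slbp, the protein that binds the stem loop of replication-dependent histone messages, read 782, 817, 750 and 689 CPM in oocytes and 954 to 1299 CPM (median 1094) in first-series embryos, with log2 fold changes of 0.57 ± 0.09 (SE; adjusted p = 6.72e-05, edgeR) and 0.85 ± 0.10 (adjusted p = 0.000133). Of the 31 tested genes in the list of replication-dependent histones, which includes Slbp, 4 rose (12.9%, against 10.6% of all genes). All 4 have near-identical copies.

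Factors that assemble ribosomes were called higher more often than all genes, again without matching for level. Of the 2031 genes with at least 100 CPM in both groups, 671 were called higher. Of 59 tested ribosome biogenesis genes, 16 rose (27.1%) and 6 fell, with a median of 0.28 (0.21 in the second series). In the second series 3 were called higher and 5 lower, so 3 of the 16 rises and 5 of the 6 falls were called in both. Nolc1 (ENSMUSG00000015176, chr19:46075863-46085530, plus strand), a nucleolar phosphoprotein that escorts small nucleolar RNPs, read 135, 175, 148 and 159 CPM in oocytes, 324 to 397 CPM (median 370.5) in first-series embryos and 213, 315, 197 and 336 CPM in second-series embryos. Both embryo groups lay above the oocytes, with log2 fold changes of 1.22 ± 0.10 (SE; adjusted p = 8.68e-09, edgeR) and 0.78 ± 0.19 (adjusted p = 0.025). Npm1, the nucleolar chaperone nucleophosmin, rose from 418 ± 67.6 to 763 ± 64.7 CPM (0.87 and 0.77, both called, with 4 copies). Wdr43, a processome subunit, rose by 0.67 and 0.92. Ncl, nucleolin, rose by 0.51 ± 0.11 (SE; adjusted p = 0.0023, edgeR) in the first series with ranges that overlapped, and was 0.03 in the second. Utp4, another processome subunit, fell from 204 ± 39.9 to 70.8 ± 14.2 CPM (-1.52 and -1.91, both called).

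Of 50 translation factors, 14 rose (28%) and 8 fell, and 10 of the 14 that rose have near-identical copies. In the second series 3 were called higher and 4 lower, and 3 of the 14 rises and 3 of the 8 falls were called in both. Eif2s2, the beta subunit of initiation factor eIF2, rose from 223 ± 18.7 to 566 ± 39.5 CPM (1.34 and 0.59), with a series difference of 0.74 ± 0.12 (adjusted p = 0.00157). Eif4b, a helicase cofactor without such a copy, rose from 317 ± 18.2 to 556 ± 49.8 CPM (0.81 and 0.57). Of 55 spliceosome genes, 19 rose (34.5%) and 5 fell, but only 1 was higher in both series, and the list median of 0.06 turned to -0.01 with raw library totals. The gene higher in both was Snrpf, a core Sm protein, which read 33.0, 73.6, 24.6 and 44.2 CPM in oocytes, 83.8 to 147 CPM (median 122) in first-series embryos and 221, 105, 146 and 165 CPM in second-series embryos. Its log2 fold change was 1.46 ± 0.23 (SE; adjusted p = 5.43e-05, edgeR) and 1.86 ± 0.33 (adjusted p = 0.00375). Srsf4, a splicing regulator without a near-identical copy, rose by 1.04 ± 0.11 (SE; adjusted p = 3.68e-07, edgeR) in the first series but was 0.23 in the second. Of 64 genes of DNA replication and G1/S, 12 rose and 12 fell (18.8% each, against 10.6% and 10.5% of all genes). Pold3, a subunit of DNA polymerase delta, rose by 0.69 and 0.61, and Orc5, of the origin recognition complex, had -0.97 and -0.87, all called.

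**Figure D3:**
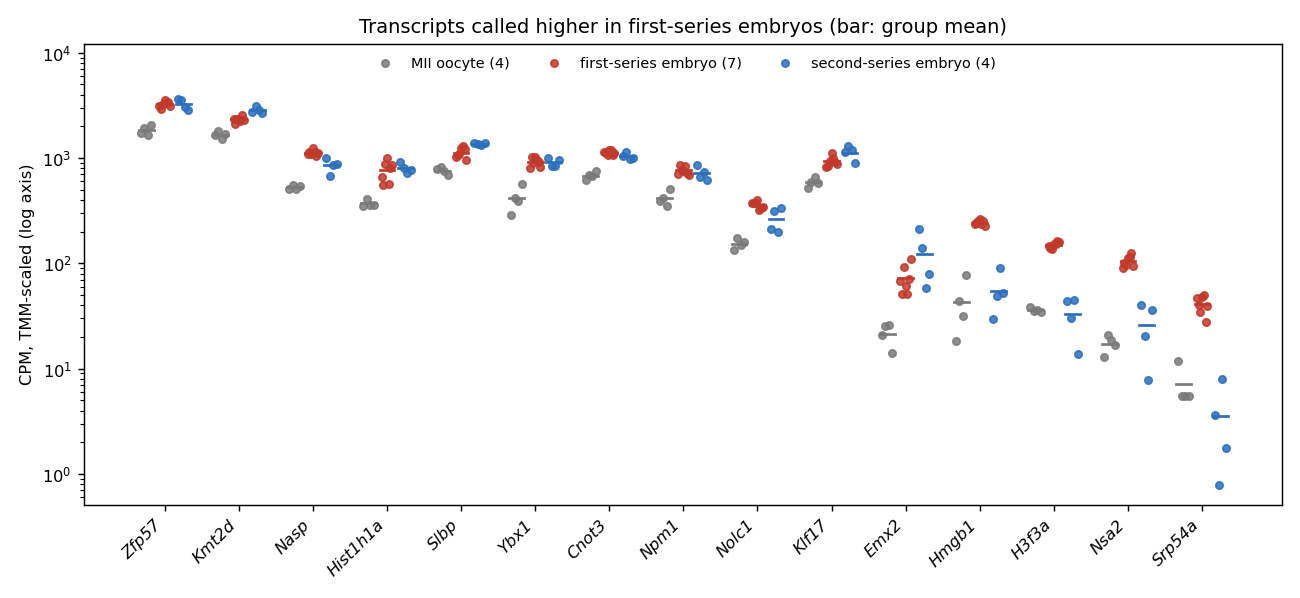
Level of 15 genes in each library, in CPM on a log axis, for the 4 oocytes, the 7 first-series and the 4 second-series control embryos; points are libraries and bars are group means. Zfp57, Kmt2d, Nasp, Hist1h1a, Slbp, Ybx1, Nolc1 and Emx2 lie above every oocyte in both embryo groups, whereas Hmgb1, H3f3a, Nsa2 and Srp54a lie above the oocytes in the first series and overlap them in the second.

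A few regulators with low levels in the egg rose in both series. Emx2, a homeodomain transcription factor of the developing brain and urogenital tract, read 20.7, 25.2, 25.7 and 14.2 CPM in oocytes, 50.7 to 109 CPM (median 68.0) in first-series embryos and 213, 140, 57.8 and 79.7 CPM in second-series embryos. The log2 change came to 1.75 ± 0.23 (SE; adjusted p = 8.24e-06, edgeR) and 2.51 ± 0.39 (adjusted p = 0.0014). In 1 fit of all 26 libraries the first-series call of Emx2 was lost (adjusted p = 0.0535, edgeR). Kcnk18, a potassium channel, Tox3, an HMG-box transcription factor, and Taok3, a protein kinase, rose by 1.33, 1.21 and 1.43 in first-series embryos and by 1.57, 1.96 and 0.81 in second-series embryos.

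Genes of early genome activation were sparse. Of 53 listed genes in the annotation, 46 had a count and 29 passed the filter. Of these, 7 rose (24.1%, against 10.6% of all genes) and 2 fell (6.9%, against 10.5%). Near-identical copies exist for 19 of the 29, including 6 of the 7 that rose and 1 of the 2 that fell, so single members are uncertain. Of all tested coding genes with such a copy, 306 of 1337 rose (22.9%), a share close to that of this list. Klf17, a zinc finger activator already stored in the egg, read 521, 592, 657 and 585 CPM in oocytes and 821 to 1120 CPM (median 910.5) in first-series embryos, with log2 fold changes of 0.66 ± 0.09 (SE; adjusted p = 1.87e-05, edgeR) and 0.94 ± 0.13 (adjusted p = 0.000532). Sp110, a nuclear body protein, rose by 1.01 and 0.59, both called. Obox2, of the oocyte homeobox family, fell from 741 ± 30.0 to 400.1 ± 103 CPM (-0.89 and -0.99, both called). Duxf3, the transcription factor Dux of the first activation wave, was at 0 in all 4 oocytes and read 0.216 to 8.40 CPM (median 4.99) in first-series embryos. Measured against the limit of 3 counts over the oocyte group (0.0315 CPM), the Duxf3 mean was at least 139.5-fold higher, and the second-series embryos read 3.44, 4.00, 0 and 0 CPM. Usp17ld, a deubiquitinase of the same family as Usp17lc, was also at 0 in oocytes and read 0.0432 to 5.84 CPM (median 2.46) in first-series and 8.60, 1.56, 16.4 and 8.93 CPM in second-series embryos, at least 79.18-fold higher in the first. Usp17lc read 0, 0.0420, 0.666 and 0 CPM in oocytes and 2.07 to 12.9 CPM (median 5.90) in first-series embryos, and was called in both series, but not in 1 fit of all 26 libraries (adjusted p = 0.0585, edgeR). Zscan4d, a marker of the later 2-cell stage, was not called at 2.43, 0.840, 0 and 0.0528 CPM in oocytes and 0 to 9.16 CPM (median 3.16) in first-series embryos, nor in the second series at 0.0662, 2.91, 3.46 and 2.10 CPM. Zfp352, another such marker, was at 0 in oocytes and had 0 to 1.21 CPM (median 0.172) in first-series embryos, too low for the filter. In all, 42 gene IDs had 0 counts in the 4 oocytes and counts in all 7 first-series embryos, of which 15 carry names other than predicted ones, and for 25 of the 42 no second-series embryo had a count. Of the 42, 1 had counts in all 4 second-series embryos. The reverse held for 35 IDs, of which 11 had counts in all 4 second-series embryos and 3 in none.

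Myc, the transcription factor whose inhibitor was used in the first series, was at 0 in all oocytes and read 0 to 0.434 CPM (median 0) in first-series embryos, so no change was detectable at this depth. Max, its partner, was not called: it read 145, 170, 154 and 188 CPM in oocytes and 170 to 231 CPM (median 204) in first-series embryos, a log2 fold change of 0.30 ± 0.11 (SE; adjusted p = 0.0603, edgeR) (0.55 in the second series, not called). The first-series value lay near the threshold: it passed with DESeq2 (adjusted p = 0.0493), with upper-quartile scaling, and without embryo 1, embryo 8 or oocyte 4 (edgeR adjusted p = 0.038, 0.0428 and 0.0313). Of 22 tested genes of the MYC network and polyamine synthesis, 3 rose (13.6%, against 10.6% of all genes) and 5 fell (22.7%, against 10.5%). Sms and Amd1, enzymes of polyamine synthesis, rose by 1.59 and 1.28 in the first series but were 0.21 and -0.57 in the second, with series differences of 1.35 ± 0.14 (adjusted p = 1.17e-05) and 1.83 ± 0.29 (adjusted p = 0.001) and near-identical copies (3 and 5). Of 59 tested genes of RNA polymerase II and the general transcription factors, 8 rose (13.6%) and 14 fell (23.7%). Hexim1, an inhibitor of the elongation factor P-TEFb, read 0, 1.09, 0 and 0 CPM in oocytes, 1.69 to 10.0 CPM (median 3.21) in first-series embryos and 0 in all second-series embryos, so its rise of 4.00 ± 1.34 (SE; adjusted p = 0.0361, edgeR) was not seen there. That call was lost when first-series embryo 5, 7 or 8, or oocyte 1, 3 or 4, was left out.

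Of 10 tested mitochondrially encoded mRNAs, 6 were lower and 1 was higher in first- than in second-series embryos. Against the oocytes, 2 rose and 1 fell in the first series (median 0.17 over 10 genes), while in the second 6 of 8 rose (median 1.24). The 2 medians therefore cover different sets of genes. The 2 that rose in the first series, mt-Atp6 and mt-Co2, were at 0 in all oocytes. Both have near-identical copies, as do 7 of the 10, and the part of reads shared with copies was not tested. The median difference between first- and second-series embryos was -1.14. mt-Co1, a subunit of cytochrome oxidase, read 779, 923, 550 and 972 CPM in oocytes, 286 to 1765 CPM (median 1024) in first-series embryos and 2320, 2270, 2250 and 2200 CPM in second-series embryos. It was not called in the first series at 0.42 ± 0.28 (SE; adjusted p = 0.362, edgeR), although it passed without embryo 2 (0.59, adjusted p = 0.0279) and with no filter on low counts (adjusted p = 0.000312). It was called in the second at 1.49 ± 0.15 (adjusted p = 3.37e-05). mt-Nd6, the mRNA encoded on the light strand, went the other way: it read 517, 482, 447 and 359 CPM in oocytes, 120.1 to 196 CPM (median 135) in first-series embryos and 510, 1170, 796 and 569 CPM in second-series embryos. Its fall in the first series, -1.65 ± 0.12 (SE; adjusted p = 1.59e-09, edgeR), stood against 0.75 ± 0.22 (adjusted p = 0.0572) in the second, and the series difference was -2.41 (adjusted p = 4.08e-07). mt-Atp6, of the ATP synthase, had 0 counts in all oocytes and all second-series embryos and 0.778 to 4.96 CPM (median 2.73) in first-series embryos. As a share of all counts, mitochondrial mRNAs took 0.446% ± 0.169 (SD, n = 7) in first-series embryos and 0.443% ± 0.102 (n = 4) in oocytes (two-sided exact permutation test, p = 0.967), and 0.878% to 1.24% in the second-series embryos.

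Several of the largest changes of the first series were absent from the second. Eif3j1, an initiation factor subunit, read 20.2, 16.8, 4.70 and 6.44 CPM in oocytes and 66.4 to 90.0 CPM (median 83.4) in first-series embryos but 11.7, 35.8, 9.76 and 30.3 CPM in second-series embryos. Its log2 fold change of 2.73 ± 0.31 (SE; adjusted p = 8.28e-07, edgeR) was the largest rise under the rule for named genes, against 0.87 ± 0.70 (adjusted p = 0.656) in the second series. Nsa2, a ribosome assembly factor, Hmgb1, a DNA-bending chromatin protein, Srp54a, of the signal recognition particle, Timm23, of the mitochondrial import channel, and Tmed2, a cargo receptor, rose by 2.60, 2.51, 2.52, 2.46 and 1.98. In the second series they had 0.59, 0.35, -1.01, -0.50 and -0.93, none called, and each differed between the series. They have 8, 47, 2, 6 and 2 near-identical copies. Stmn1, a microtubule destabiliser with 1 copy, had 2.60 and 1.30, and Neurog3, a transcription factor without a copy, had 2.63 and -0.29, without a called series difference. The calls of Neurog3 and Tmed2 were lost in 1 fit of all 26 libraries (adjusted p = 0.163 and 0.0588, edgeR). On the lower side, Chst15 (ENSMUSG00000030930, chr7:132235780-132317228, minus strand), a chondroitin sulfotransferase, read 115, 46.9, 118 and 104 CPM in oocytes, 0 to 2.77 CPM (median 0.951) in first-series embryos and 279, 276, 115 and 104 CPM in second-series embryos. The first-series log2 change of -6.54 ± 0.60 (SE; adjusted p = 3.51e-08, edgeR) stood against 1.00 ± 0.35 (adjusted p = 0.126) in the second, and the second-series embryos overlapped or exceeded the oocytes. Hes1, a Notch-regulated repressor, and Col8a1, a collagen, had -5.41 and -6.07 in the first series, against -0.19 and 0.66 in the second, and both differed between the series.

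Genes with a near-identical copy elsewhere in the genome, taken as at least 95% identity over at least 100 bases of coding sequence, made up 11.2% of the coding genes tested. They made up 22.3% of those that rose, 10.1% of those that fell and 36.5% of those higher in first- than in second-series embryos. With a copy, 306 of 1337 genes rose (22.9%) and 221 of 286 checked kept the sign in the second series (77.3%). Without one, 1066 of 10641 rose (10%) and 936 of 1015 kept the sign (92.2%). How reads that match several places were counted is not stated in the labels, and their part in these rises was not tested. Copies are not given above for every named gene that has them.

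**Figure D4:**
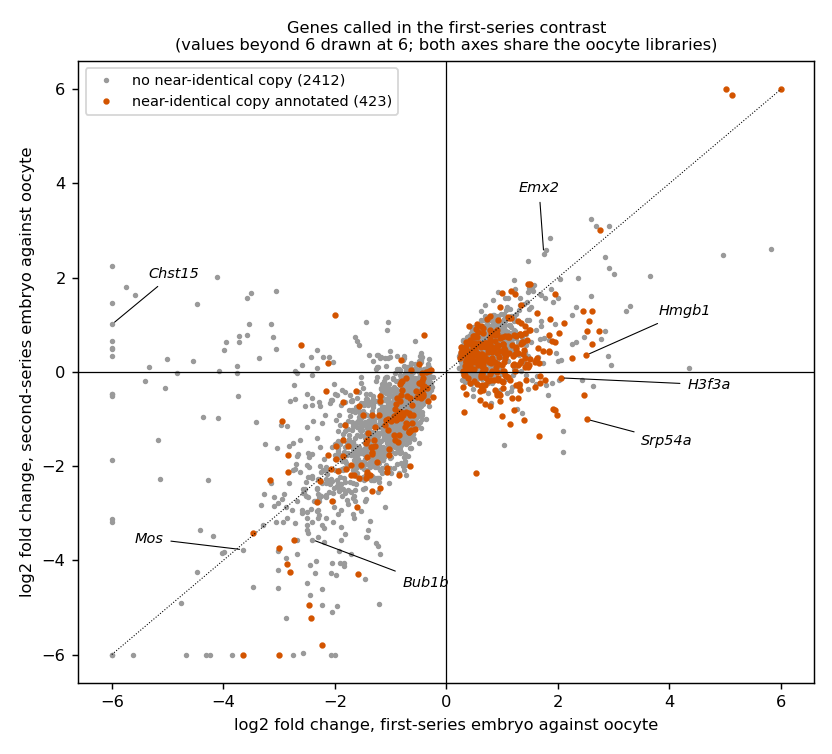
Log2 fold change against the oocytes in the first series (horizontal) and in the second series (vertical) for 2835 genes called in the first series and tested in both; orange points are 423 genes with a near-identical copy, grey points the 2412 others, and 26 points are drawn at the limit of 6. Most genes keep their sign (2573 of 2835), and genes with a copy are frequent among the rises that lie near 0 in the second series; both axes use the same 4 oocytes.

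Spread among the 7 embryos was close to that among the oocytes. Over 2031 genes with at least 100 CPM in both groups, the coefficient of variation had a median of 10.9% in the first-series embryos, 11.5% in the oocytes and 18% in the second-series embryos. Among those of these genes that fell it was 12.6% in first-series embryos and 10.1% in oocytes. Among those that rose it was 9.27% and 11.3%, the opposite direction. The expected number of genes detected at 1 fixed depth was 16253 ± 644 (SD, n = 7) in embryos and 14949 ± 1399 (n = 4) in oocytes. This difference of 1304 did not pass (two-sided exact permutation test over 330 splits, p = 0.0545, adjusted p over 5 measures 0.0908, smallest possible p 0.00606), and without oocyte replicate 2 it was 1952 (p = 0.00833). The 2 second-series embryos deep enough for this measure, replicates 2 and 3, had 13582 and 12855 genes, below every oocyte (lowest 13797). The 10 most abundant genes took 6.63% ± 0.55 of counts in embryos and 5.05% ± 0.51 in oocytes (two-sided exact permutation p = 0.00606, adjusted 0.0227), with every first-series embryo except embryo 2 above the highest oocyte, and 5.43% to 6.71% in second-series embryos. Pseudogenes took 0.50% ± 0.02 of counts in first-series embryos and 0.55% ± 0.03 in oocytes (two-sided exact permutation p = 0.00909, adjusted 0.0227). Ribosomal RNA took 2.09% ± 0.52 and 1.90% ± 0.31 (two-sided exact permutation p = 0.548).

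Some maternal transcripts varied among the embryos, and the genes named here were chosen after their values were seen. Over all 307 genes called lower with at least 100 CPM in these embryos, embryo 8 was the highest for 45 and the lowest for 70, and embryo 2 was the highest for 77, so the named genes do not stand for the whole set. Ordered by the number of genes detected, from 15596 in embryo 7 to 17244 in embryo 8, Nlrp14 read 227, 332, 260, 470, 380, 478 and 844 CPM. Tle6, Padi6, Nlrp5 and Bmp15 were also highest in embryo 8. Dcp1a, in the same order, read 976, 1030, 800, 618, 621, 452 and 447 CPM. Smc4, Ern1 and Papola were likewise higher in embryos 5, 6 and 7 than in the others, and Smc3 was highest in embryos 5 and 6. The part of the number of genes detected in this was not tested.

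**Figure D5:**
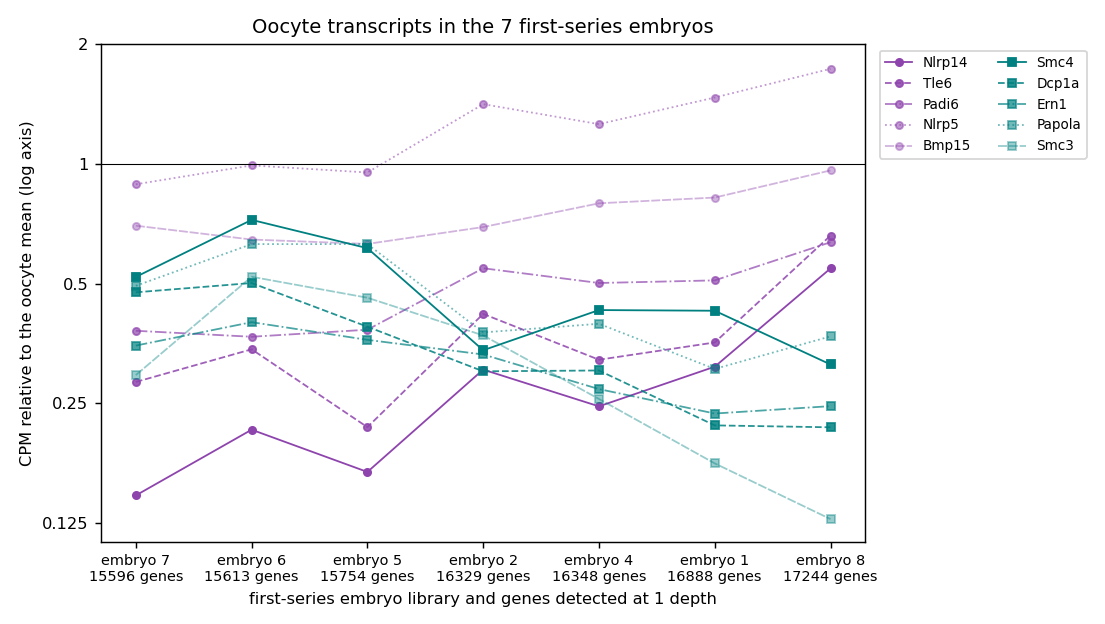
Level of 10 maternal transcripts in each first-series embryo, as CPM relative to the oocyte mean on a log axis; embryos are ordered from left to right by the expected number of genes detected, from 15596 in embryo 7 to 17244 in embryo 8. Nlrp14, Tle6, Padi6, Nlrp5 and Bmp15 are highest in embryo 8, and Smc4, Dcp1a, Ern1, Papola and Smc3 are higher in embryos 5 to 7 than in embryo 8.

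Other lists had few tested members. Over all genes, 10.6% rose and 10.5% fell. Of 25 tested calcium signalling genes of egg activation, 1 rose and 1 fell (4% each). Of 16 long noncoding and small nuclear RNAs, 1 rose and 1 fell (6.25% each). Of 5 tested sperm and spermatid genes 1, Odf2, rose (20%), and no blood gene passed the filter. Counts this small were not set apart from the shares over all genes.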

How the data were processed

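RNA was counted in 26 libraries, of which 11 entered the comparison and 4 more the check. The deposited table holds raw counts, whole numbers, for 55401 Ensembl gene IDs. Its reads had been cut with cutadapt 1.7.1 and mapped by STAR 2.5.0a on build GRCm38, per the submitters' processing notes. The counting program and strand setting are not stated in those notes, so overlapping, antisense and copied genes are uncertain. Per the labels' protocols, libraries were made with version 2 of Takara's SMARTer Stranded Pico Input kit for total RNA, which amplifies very small inputs.

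Symbols, coordinates and transcript sequences came from GENCODE vM21, which named 55141 IDs. Counts were tested in R 4.3.3 with edgeR 4.0.16 (quasi-likelihood F test, TMM scaling, filterByExpr with a minimum count of 10, Benjamini-Hochberg adjustment, threshold 0.05) in a separate fit for each pair of groups. The filter left 14099 genes, which held 99.8% of the counts. DESeq2 1.42.0 and limma 3.58.1 served as alternatives, and the test was checked on simulated counts. Levels are CPM of TMM-scaled totals. A fold against a group at 0 uses a limit of 3 counts over the group. Single values per library were compared by two-sided exact permutation tests.

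Members and gene lists were chosen with earlier results of these data known. Genes named were the 10 largest rises and falls with at least 10 CPM and no overlap, the 3 members of each list with the smallest p, a set always reported, and genes absent from one group or different between the series. The rule's genes are not all reported here. Fgf8, Nlrp2, Padi6, Zbed3, Mapk3, Smc4, Cnot1, Lsm14b, Papola, Fbxw24, Cox4i1, Psma4, H1f0, H3f3b, Dnmt3a, Ezh2, Wdr43 and Eif4b were named outside it, with their values seen.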

Additional observations from a re-analysis of the deposited data

Results flagged for a closer look

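Single libraries stood apart from the rest of their group for 13 of 240 groups of values examined (5.42%), where chance alone flags about 1 in 20. Among oocytes, replicate 4 was low for Astl at 156 CPM (others 182 to 186) and high for Zbed3 at 10600 CPM (others 9430 to 9530). Oocyte 3 was low for Pabpc4 at 60.9 CPM, high for Usp17lc at 0.666 CPM and low for the mitochondrial mRNA share at 0.290% (others 0.486% to 0.505%). Oocyte 2 was high for Hist1h1a at 412 CPM and for Hexim1 at 1.09 CPM, where the other oocytes were at 0, and oocyte 1 was high for Srp54a, of the signal recognition particle, at 11.9 CPM (others 5.48 to 5.55). Among the first-series embryos, replicate 8 was high for Nlrp14 at 844 CPM (others 227 to 478) and low for Btg4 at 1790 CPM (others 2030 to 2190). Embryo 6 was high for the cystine importer Slc7a11 at 203 CPM. Embryo 7 was high for the replication clamp Pcna at 123 CPM and for Col8a1 at 0.453 CPM. Most of these libraries keep to their side of the comparison: the embryo values of Nlrp14 and Slc7a11 remain below the oocyte range.

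Embryos of the 2 series differed, by edgeR's quasi-likelihood test of first-series against second-series embryos, for 33 of 113 genes considered for naming. Over all genes tested, 580 of 13594 (4.27%) differed. Some of the 113 were named because they differed in this same test, so their share does not measure how common the difference is. The values are log2 differences, first minus second, from a fit of the embryos of both series without the oocytes. Higher in the first series were the cell cycle genes Ccnb1 (0.76), Cks2 (1.09) and Bub1b (1.13). So were the RNA-binding and splicing genes Pabpc4 (1.58), Hnrnpa1 (1.29) and Srsf4 (0.80), the ribosomal gene Rpl21 (1.44), and the initiation factors Eif2s2 (0.74) and Eif3j1 (1.85). Chromatin genes H3f3a (2.16), Hmgb1 (2.13) and Nasp (0.37) were higher as well, together with the ribosome assembly factor Nsa2 (2.00), the protein-trafficking genes Srp54a (3.51), Timm23 (2.94) and Tmed2 (2.90), and the polyamine enzymes Sms (1.35) and Amd1 (1.83). Taok3 (0.60) and Dnajb6 (1.04) rose against the oocytes in both series, and by more in the first. Low genes gave wide fitted values: Hexim1 (9.55) and mt-Atp6 (8.97) against second-series embryos at 0, the prolyl isomerase Ppia (4.48) and Csrnp1 (4.41).

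Lower in the first series were the oocyte factors Bmp15 (-0.40) and Oosp1 (-0.50), the histone gene H3f3b (-0.58) and Kmt2d (-0.30). The mitochondrial mRNAs mt-Co1 (-1.09) and mt-Nd6 (-2.41) were lower too, as were Chst15 (-7.56), Hes1 (-5.23) and Col8a1 (-6.74), all 3 of which lay close to 0 in the first-series embryos. What these differences come from was not tested.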

How the results depend on the processing

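Against 1495 higher and 1484 lower genes (50.2% higher), raw library totals gave 1244 and 1683 (42.5%) and upper-quartile scaling 1741 and 1311 (57%). In the same comparison, 1 fit of all 26 libraries gave 695 and 711, 1 fit of 15 libraries 868 and 807, a 2-fold requirement 429 and 801, and leaving out each library 1235 to 1443 and 1286 to 1426. Shared replicate numbers do not pair the samples (correlations of same-numbered deviations -0.0201 to 0.0173). With a replicate block, over the 6 libraries with shared numbers, the counts were 908 and 946, and for the series difference 39 higher and 21 lower. The second-series check (293 higher, 471 lower) gave 737 and 855 with DESeq2, 706 and 1007 in the fit of 15 libraries, and 121 to 282 and 262 to 563 with a library left out. The series difference (371 higher, 209 lower) gave 833 and 538 with DESeq2, 486 lower with no filter, 215 higher without genes that have a near-identical copy (an alternative chosen after seeing the data), and 231 to 488 and 139 to 255 with a library left out. DESeq2 called 1162 genes in both contrasts, against 636. In the fit of 15 libraries, which calls fewer genes, 1520 kept their sign, against 2573, and 1365 of these did not differ between the series, against 2437. The difference in genes detected was 920 to 1952 with a library left out, and passed without oocyte replicate 2 (1952).

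Of 102 called genes considered for naming, 92 kept their call and direction under every alternative that gave them a value. All 102 did so under the other scalings, and none reversed. Many of the 102 were chosen for a small p or a large change in these data, so this share does not stand for all called genes. Genes with a near-identical copy had no value in the fit without copied genes. Of the other 10, Zbed3, Psmb1, Emx2, Usp17lc, Hexim1, Neurog3 and Tmed2 were not called in 1 fit of all 26 libraries, Usp17ld was not called with limma voom, and Psma4 (adjusted p = 0.0814), Hexim1 and mt-Atp6 were not called with the replicate block. Calls were gained with that block for Nlrp5 (0.50, adjusted p = 0.000782) and Ppia (1.69, adjusted p = 0.0448). Reversals touched only genes that were not called: Kpna7 (-0.02 with raw totals, -0.02 to 0.08 with a library left out), Cnot6l (0.06 with upper-quartile scaling, 0.02 with voom, 0.01 without copied genes, -0.05 to 0.03 with a library left out) and mt-Co1 (-0.57 with the replicate block). The median of all genes was 0.02, and -0.05 with raw totals. The second-series check had a biological coefficient of variation of 0.923, against 0.728, with 4 embryos against 7. The cause of each shift, other than fewer libraries or genes, was not tested.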

Other observations

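Pcna, the sliding clamp of DNA polymerases, read 94.5 to 123 CPM in the first-series embryos and 34.4 to 57.1 CPM in the oocytes, a log2 fold change of 1.24 ± 0.15 (SE; adjusted p = 2.13e-06, edgeR). In the second-series embryos it was 0.75 ± 0.32 (adjusted p = 0.231), with 46.8 to 112 CPM, and the difference of 0.47 between the series was not called (adjusted p = 0.212). Hnrnpa1, an RNA-binding protein of splicing with 11 near-identical copies, rose by 1.41 ± 0.13 in the first series (edgeR adjusted p = 3.97e-08) and was 0.10 ± 0.25 in the second. Psmb1, a catalytic-core subunit of the proteasome, read 30.8 to 58.8 CPM in oocytes and 10.3 to 16.5 CPM in first-series embryos, with a log2 fold change of -1.65 ± 0.25 (edgeR adjusted p = 3.37e-05). Its second-series value of -2.64 ± 0.96 did not pass (adjusted p = 0.142), and the first-series call was lost in 1 fit of all 26 libraries (adjusted p = 0.118) and in 1 fit of 15 (adjusted p = 0.0894).

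Genes called against the oocytes in the second series gave a score for each first-series embryo. The 421 that fell there and had at least 10 CPM in oocytes lay at a median log2 ratio of -0.95 to -1.21 in the 7 first-series embryos, and the 291 that rose at 0.49 to 0.61. Each embryo had the direction of the second series for both sets, which were chosen with the same 4 oocytes.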
